A study of Mus musculus with 13 samples.

Results

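Hoxa5, Hoxa7, Hoxa9, Hoxa10, Meis1, Pbx3, Hlf and Mecom encode 8 transcription factors known from blood stem and progenitor cells. They were chosen by name, and each matched 1 of the 24072 RefSeq identifiers in the count files. RNA was sequenced in 13 libraries, made from total RNA of bone marrow CLP (common lymphoid progenitors), the early cells that give rise to lymphocytes. All cells came from wild-type C57BL/6 mice with no treatment named, and flow cytometry divided them by the surface proteins Ly6D and Gfra2. Ly6D-Gfra2- cells gave 6 libraries (replicates 1 to 6), Ly6D+Gfra2- cells 4 (replicates 1, 2, 5 and 6) and Ly6D+Gfra2+ cells 3 (replicates 4, 5 and 6). The ages of the mice, and whether a library came from 1 animal or several, are not given in the sources used here, so the tests measure the spread between libraries, which may be technical.

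Hoxa proteins bind DNA through a homeodomain, and their genes lie in 1 cluster in which neighbours are often active together. Meis1 and Pbx3 belong to the TALE homeodomain family, whose members bind DNA beside Hox proteins and sharpen their choice of sites. Hlf, a PAR bZIP factor, and Mecom, a zinc finger factor of the PRDM family, are best known from haematopoietic stem cells. Hoxa9 is also required for normal lymphoid progenitor development, and Hoxa9 with Meis1 is a well-known driver of acute leukaemia.

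Total counts ran from 6892728 to 23705975 per library, and 3 counts in a library corresponded to 0.134 to 0.389 CPM (counts per 1000000, with library sizes scaled by the TMM method). Library names carry a prefix, P for replicates 1 to 3 and T for replicates 4 to 6, whose meaning is not stated. Ly6D+Gfra2+ has libraries of prefix T only. Its replicates 4, 5 and 6 had counts for 11873, 10837 and 12369 identifiers, and the Ly6D-Gfra2- libraries for 12904 to 13969. Ly6D+Gfra2- replicate 1 had counts for 11636 identifiers, and replicates 2, 5 and 6 of that group for 13364, 12964 and 13017. The part of these differences in the zeros and low values of scarce genes was not tested. All 9 markers of common lymphoid progenitors on the list used, among them Il7r, Flt3 and Dntt, had counts in every library. A pair of libraries stood apart. Ly6d reached 213 CPM in a library labelled Ly6D-, replicate 3 of Ly6D-Gfra2-, where the other libraries of its label had 0.623 to 8.30 CPM. Ly6D+Gfra2- replicate 1 had the highest level of all 13 libraries for Meis1, Hoxa10 and Hlf and the lowest for Hoxa5 and Hoxa7. Results below are therefore also given without them, a choice made after seeing the data.

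Meis1 was the most abundant of the 8 per length of transcript in each group. Over all 13 libraries it averaged 26.5 ± 7.70 CPM per kb of exon (SD, n = 13), followed by Hoxa9 at 18.1 ± 8.29, Hoxa7 at 14.9 ± 8.91 and Hoxa5 at 13.5 ± 9.88 CPM per kb. Hlf averaged 9.22 ± 7.999 and Hoxa10 5.53 ± 10.8 CPM per kb, and Pbx3 (1.16 ± 1.68) and Mecom (0.976 ± 1.13) were lowest. Libraries of each gene overlapped with those of the next gene in this order, so no step between neighbours exceeded the spread. Within Ly6D+Gfra2+ the order was Meis1, Hoxa7, Hoxa5, Hoxa9, Hlf, Hoxa10, Mecom and Pbx3. There the lowest Hoxa9 library (6.82 CPM per kb) lay above the highest Hlf library (3.71 CPM per kb), the single step in the 3 groups at which neighbours did not overlap.

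**Figure D1:**
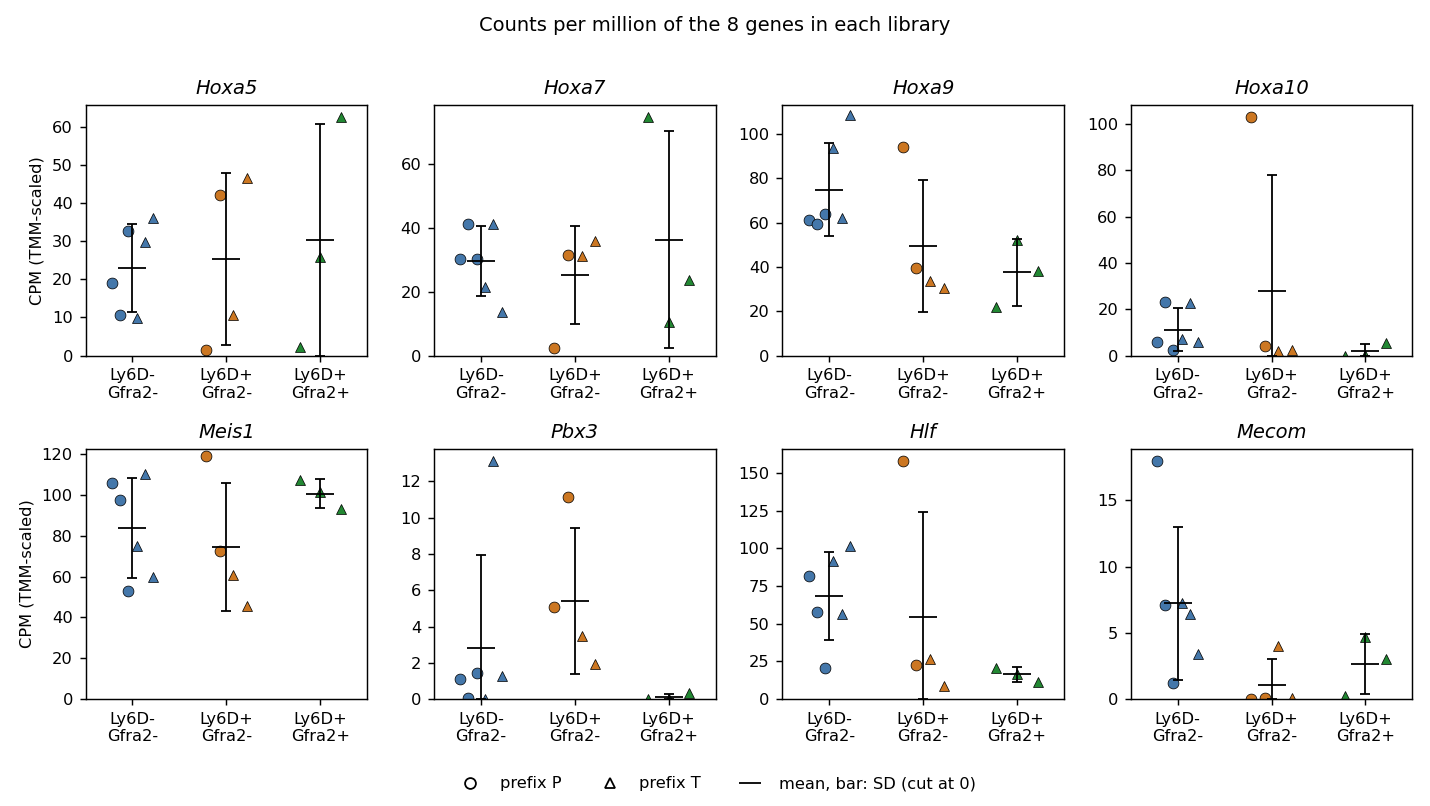
CPM (y axis, linear) of each of the 8 genes in the 3 sorted groups (x axis). Each point is 1 library (circle, prefix P; triangle, prefix T), and the horizontal mark and bar are the mean and SD, cut at 0. Ly6D+Gfra2- replicate 1 is the single high point of its group for Hoxa9, Hoxa10 and Hlf, and the 3 Meis1 values in Ly6D+Gfra2+ lie between 93.1 and 107 CPM.

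Hoxa9 (NM_010456, gene span in mm10 on chromosome 6, 52223097 to 52227370, minus strand) was highest in Ly6D-Gfra2- cells. Its level there ran from 59.4 to 109 CPM with a median of 63.1 CPM in 6 libraries. Replicates 1, 2, 5 and 6 of Ly6D+Gfra2- had 94.0, 39.6, 33.7 and 30.6 CPM, and replicates 4, 5 and 6 of Ly6D+Gfra2+ had 21.99, 52.4 and 38.4 CPM. All Ly6D+Gfra2+ libraries lay below all Ly6D-Gfra2- libraries, whereas Ly6D+Gfra2- overlapped with both, with Ly6D-Gfra2- through its replicate 1 alone. In bulk libraries such as these, fewer cells that express a gene and less RNA per cell cannot be told apart. The log2 fold change of Hoxa9 in Ly6D+Gfra2+ against Ly6D-Gfra2- was -0.95 (SE 0.48; edgeR quasi-likelihood test, Benjamini-Hochberg adjusted p = 0.357), which did not pass the threshold of 0.05. The fitted value stayed negative, from -1.27 to -0.69, in all 21 alternative settings of this comparison, with adjusted p from 0.193 to 0.6245. For Ly6D+Gfra2- against Ly6D-Gfra2- the log2 fold change was -0.62 (SE 0.42; edgeR adjusted p = 0.9995). It became -1.12 (SE 0.38; edgeR adjusted p = 1) without Ly6D+Gfra2- replicate 1, when every Ly6D+Gfra2- library lay below every Ly6D-Gfra2- library. Within prefix T it was -1.45 (SE 0.56), and within prefix P, the prefix of that library, 0.12 (SE 0.48). Between Ly6D+Gfra2+ and Ly6D+Gfra2- the log2 fold change was -0.33 (SE 0.54; edgeR adjusted p = 0.852), and it turned to 0.016 without Ly6D+Gfra2- replicate 1 and to 0.22 within prefix T.

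The other gene spans below are in mm10 too. The promoter of Hoxa9 is shown because this gene separated the outer groups without overlap. RefSeq (GRCm38.p6, the assembly also called mm10) gives these 250 bases before its start, chr6:52227371-52227620, 5′ to 3′ on the minus strand.
Hoxa9: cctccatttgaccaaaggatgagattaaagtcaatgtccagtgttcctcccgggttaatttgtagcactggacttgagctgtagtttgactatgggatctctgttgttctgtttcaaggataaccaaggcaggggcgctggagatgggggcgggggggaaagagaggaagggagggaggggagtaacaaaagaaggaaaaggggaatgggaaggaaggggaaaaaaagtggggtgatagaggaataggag
None of the 5 short motifs searched on both strands lay in it, so no letters are in capitals. The motifs were TGATNNAT (Hox with Pbx; in 7.69% of 32841 promoter windows of this length), TGACAG (Meis; 15.9%), TTACNTAA (PAR bZIP; 2.06%), TGACGTCA (the cyclic AMP response element, CRE; 1.55%) and TTTATNA (posterior Hox and Cdx; 12.8%). A match or its lack describes the letters alone.

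Hoxa10 (NM_008263, chromosome 6, 52231197 to 52240854, minus strand), the next gene of the cluster and a regulator of progenitor and myeloid growth, was the most uneven of the 8. In Ly6D-Gfra2- it ran from 2.58 to 23.3 CPM with a median of 6.396 CPM. Replicates 1, 2, 5 and 6 of Ly6D+Gfra2- had 103, 4.16, 2.05 and 2.64 CPM. Replicates 4, 5 and 6 of Ly6D+Gfra2+ had 0, 0.239 and 5.31 CPM, from 0, 2 and 49 counts. A single Ly6D+Gfra2- library thus held most of its group's signal, and the groups overlapped. Against Ly6D-Gfra2-, the fitted log2 fold change was -2.06 (SE 1.48; edgeR adjusted p = 0.553) in Ly6D+Gfra2+ and 0.47 (SE 1.53; edgeR adjusted p = 0.9995) in Ly6D+Gfra2-. The value for Ly6D+Gfra2+ ran from -5.92 (without Ly6D+Gfra2+ replicate 6) to -1.04 (without Ly6D-Gfra2- replicate 5) when 1 library was left out. The value for Ly6D+Gfra2- turned to -1.91 (SE 1.32) without Ly6D+Gfra2- replicate 1 and to -0.30 (SE 1.61) without the library labelled Ly6D-Gfra2- replicate 3. Between Ly6D+Gfra2+ and Ly6D+Gfra2- it was -2.53 (SE 1.95; edgeR adjusted p = 0.622), and -0.60 (SE 1.48) without Ly6D+Gfra2- replicate 1 and -6.39 without Ly6D+Gfra2+ replicate 6.

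Hoxa5 and Hoxa7 lie in the middle of the cluster and act in positional patterning as well as in progenitor cells. Neither passed the test in any comparison (edgeR adjusted p of 0.860 or more). Hoxa5 (NM_010453, chromosome 6, 52201754 to 52204587, minus strand) ran from 9.76 to 36.2 CPM with a median of 24.3 CPM in Ly6D-Gfra2-. Its replicates 1, 2, 5 and 6 of Ly6D+Gfra2- had 1.56, 42.2, 10.6 and 46.7 CPM, and replicates 4, 5 and 6 of Ly6D+Gfra2+ had 2.29, 26.0 and 62.5 CPM. The spread within each Ly6D+ group covered the whole range of Ly6D-Gfra2-. Hoxa7 (NM_010455, chromosome 6, 52215623 to 52218573, minus strand) ran from 13.8 to 41.4 CPM with a median of 30.3 CPM in Ly6D-Gfra2-. It had 2.27, 31.6, 31.3 and 35.9 CPM in Ly6D+Gfra2- replicates 1, 2, 5 and 6 and 74.9, 10.5 and 23.6 CPM in Ly6D+Gfra2+ replicates 4, 5 and 6. Its groups overlapped too. The antisense gene Hoxaas3 covers 28.8% of the exon bases of Hoxa7, and since the strand setting of the counting is not stated, reads of the 2 cannot be told apart. Fitted log2 fold changes of Hoxa5 lay between 0.11 and 0.24 in the 3 comparisons, with SE of 0.83 to 1.07. Those of Hoxa7 lay between -0.27 and 0.48, with SE of 0.69 to 0.83. For both genes each comparison changed sign in at least 1 alternative setting.

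Along the cluster, all genes from Hoxa2 to Hoxa10 had counts. Of 39 Hox genes in the 4 clusters, 27 had no count in any of the 13 libraries, which allows up to 0.0184 CPM (3 counts over all libraries together). The silent genes were 2 of 11 in Hoxa, Hoxa11 and Hoxa13 at the 5′ end, with 7 of 10 in Hoxb and all 9 in each of Hoxc and Hoxd. Of the other 35 Hox genes, 6 were abundant enough to test (Hoxa2, Hoxa3, Hoxa4, Hoxa6, Hoxb3 and Hoxb4), and 0 of 6 passed in any of the 3 comparisons with edgeR. Their median log2 fold change in Ly6D+Gfra2+ against Ly6D-Gfra2- was -2.03, with 5 of 6 negative, beside 0.013 over all 12722 genes tested. Hoxa4 had the smallest p of them (unadjusted p = 0.0171 and adjusted p = 0.221 in edgeR). It had 402 counts in the 6 Ly6D-Gfra2- libraries and 1 count in the 3 Ly6D+Gfra2+ libraries, a ratio of group levels of 130 with a 95% counting interval of 23.2 to 5153. Hoxa2 had a log2 fold change of -3.57 (SE 1.80; edgeR adjusted p = 0.357) in that comparison and Hoxa6 of -2.01 (SE 1.10; edgeR adjusted p = 0.403). Hoxa6 ran from 2.14 to 17.5 CPM in Ly6D-Gfra2-, while Ly6D+Gfra2+ replicates 4, 5 and 6 had 3.44, 3.35 and 0.542 CPM, so these groups overlapped. In Ly6D+Gfra2- replicate 1 the cluster was uneven, with Hoxa3 at 99.98, Hoxa9 at 94.0 and Hoxa10 at 103 CPM. Hoxa5, Hoxa6 and Hoxa7 were at 1.56, 3.12 and 2.27 CPM there. The other 3 libraries of that group had 6.35 to 24.7 CPM of Hoxa3. The annotated span of Hoxa3, 52169059 to 52213067, contains the genes Hoxa4, Hoxa5 and Hoxa6, and Hoxa7 lies between it and Hoxa9.

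**Figure D2:**
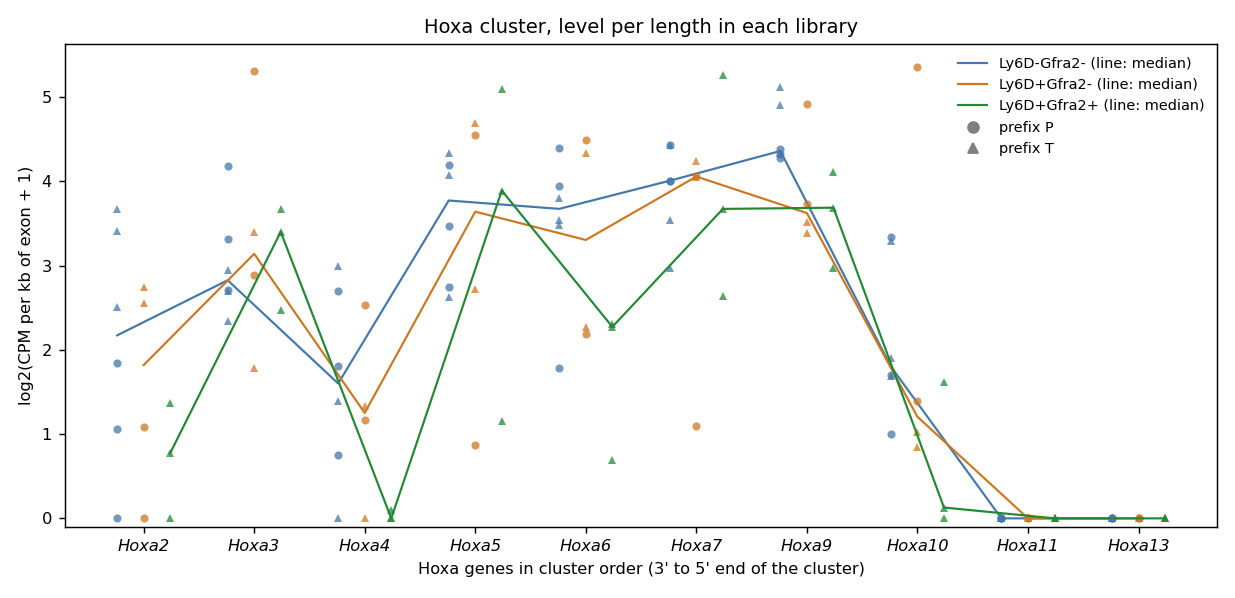
Level per length of 10 Hoxa genes in cluster order (x axis), as log2 of CPM per kb of exon plus 1 (y axis). Each point is 1 library and each line joins the medians of a group. Hoxa11 and Hoxa13 are at 0 in all 13 libraries, and the separate high points for Hoxa3 and Hoxa10 are Ly6D+Gfra2- replicate 1.

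Meis1 (NM_001193271, chromosome 11, 18880428 to 19019651, minus strand), the cofactor that acts with Hoxa9, was the steadiest of the 8, with a coefficient of variation of 0.29 over the 13 libraries against 0.458 for Hoxa9 and 1.96 for Hoxa10. In Ly6D-Gfra2- it ran from 53.0 to 110 CPM with a median of 86.5 CPM. Replicates 1, 2, 5 and 6 of Ly6D+Gfra2- had 119, 72.8, 60.7 and 45.8 CPM, and replicates 4, 5 and 6 of Ly6D+Gfra2+ had 107, 102 and 93.1 CPM. Every group overlapped with the others, and the Ly6D+Gfra2+ libraries lay near the top of the range. The log2 fold change was 0.66 (SE 0.41; edgeR adjusted p = 0.511) in Ly6D+Gfra2+ against Ly6D+Gfra2- and 0.45 (SE 0.36; edgeR adjusted p = 0.613) against Ly6D-Gfra2-. Both kept a positive sign in all 21 alternative settings of their comparison. Without Ly6D+Gfra2- replicate 1, the Ly6D+Gfra2+ libraries lay above all Ly6D+Gfra2- libraries, and the log2 fold change was 0.83 (SE 0.38; edgeR adjusted p = 0.338). That library was set apart partly for its high Meis1 level, so these values are a description and carry no test. Meis1 and Hoxa9 were thus fitted in opposite directions between the outer groups, 0.45 and -0.95, a difference between genes that was not tested. The promoter window that RefSeq gives for Meis1 (GRCm38.p6, chr11:19018970-19019219, minus strand) is shown beside that of its partner Hoxa9, and it also held none of the 5 motifs. This window lies before an inner start, within the gene span above. The GENCODE transcript matched to the counted identifier starts near it, at 19018958.
Meis1: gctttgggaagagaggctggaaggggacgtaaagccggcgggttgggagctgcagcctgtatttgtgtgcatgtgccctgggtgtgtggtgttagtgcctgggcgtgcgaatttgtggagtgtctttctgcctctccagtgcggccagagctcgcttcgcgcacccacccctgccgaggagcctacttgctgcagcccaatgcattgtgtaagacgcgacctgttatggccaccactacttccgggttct
The Meis1 window held 13 CG dinucleotides where the Hoxa9 window held 3 and the median window 6.

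Pbx3 (NM_016768, chromosome 2, 34171457 to 34372045, minus strand), the other TALE cofactor, was found at low levels and not in every library. It ran from 0 to 13.1 CPM with a median of 1.196 CPM in Ly6D-Gfra2-, where replicate 5 held 159 of the group's 210 counts. Replicates 1, 2, 5 and 6 of Ly6D+Gfra2- had 5.06, 11.1, 3.45 and 1.93 CPM. Replicates 4, 5 and 6 of Ly6D+Gfra2+ had 0, 0 and 0.325 CPM, 3 counts in all. Every Ly6D+Gfra2+ library lay below every Ly6D+Gfra2- library, while Ly6D-Gfra2- overlapped with both. From the counts, the Ly6D+Gfra2- level was 55.6 times that of Ly6D+Gfra2+ (95% counting interval 18.9 to 271), and the Ly6D-Gfra2- level 22.7 times (7.65 to 111). These intervals cover counting error only. With the spread between libraries taken in, neither passed, with edgeR adjusted p = 0.303 (unadjusted p = 0.0252) against Ly6D+Gfra2- and adjusted p = 0.302 (unadjusted p = 0.0417) against Ly6D-Gfra2-. The fitted log2 fold changes, -6.28 (SE 2.56) and -4.77 (SE 2.16), depend on the prior count because so few counts stand in Ly6D+Gfra2+. With 1 library left out they ran from -9.91 to -4.85 and from -8.39 to -2.14, the lowest without Ly6D+Gfra2+ replicate 6, which holds the 3 counts, and the highest without Ly6D-Gfra2- replicate 5. DESeq2 gave an adjusted p of 0.0553 for the first and 0.138 for the second. No promoter window was at hand for Pbx3.

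Of the 9 other TALE genes, 7 were tested and 0 of 7 passed in any comparison with edgeR. Tgif2, which represses transcription, had the smallest p. It ran from 11.3 to 33.9 CPM in Ly6D-Gfra2- and had 8.93, 3.23 and 10.1 CPM in Ly6D+Gfra2+ replicates 4, 5 and 6, without overlap. Its log2 fold change was -1.90 (SE 0.72; edgeR adjusted p = 0.221). Pbx4 had a log2 fold change of -1.86 (SE 0.88; edgeR adjusted p = 0.379) in Ly6D+Gfra2+ against Ly6D+Gfra2-, and Tgif1 of 0.94 (SE 0.57; edgeR adjusted p = 0.506). Pbx2 was well above Pbx3, at 26.9 CPM per kb over the 13 libraries. Meis2 had no count in any library.

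Hlf (NM_172563, chromosome 11, 90336535 to 90390917, minus strand) was lower in Ly6D+Gfra2+ than in most Ly6D-Gfra2- libraries. It ran from 20.9 to 102 CPM with a median of 69.8 CPM in Ly6D-Gfra2-, where the lowest value is that of the library labelled Ly6D-Gfra2- replicate 3 and the other 5 had 56.7 CPM or more. Replicates 1, 2, 5 and 6 of Ly6D+Gfra2- had 158, 22.9, 26.7 and 8.93 CPM, and replicates 4, 5 and 6 of Ly6D+Gfra2+ had 20.96, 16.9 and 11.3 CPM. With all libraries the groups overlapped. Without the 2 libraries that stood apart, the Ly6D-Gfra2- libraries (56.7 to 102 CPM) lay above all those of both Ly6D+ groups (8.93 to 26.7 CPM). The log2 fold change in Ly6D+Gfra2+ against Ly6D-Gfra2- was -1.89 (SE 0.77; edgeR adjusted p = 0.252) with all libraries. It was -2.26 (SE 0.52; edgeR adjusted p = 0.0512) without both, and -2.35 (SE 0.60; edgeR adjusted p = 0.153) within prefix T. The libraries left out were chosen partly from levels of Hlf, so values of Hlf without them are a description and carry no test. Against Ly6D-Gfra2-, Ly6D+Gfra2- had -0.56 (SE 0.71; edgeR adjusted p = 0.9995). That value was -1.81 (SE 0.54) without Ly6D+Gfra2- replicate 1 and -1.99 (SE 0.50; edgeR adjusted p = 0.353) without both. Within prefix T it was -2.22 (SE 0.70), within prefix P it turned to 0.75 (SE 0.77), and without Ly6D+Gfra2- replicate 6 it turned to 0.035 (SE 0.68). Between Ly6D+Gfra2+ and Ly6D+Gfra2- the log2 fold change of -1.33 (SE 0.92; edgeR adjusted p = 0.565) shrank to -0.39 (SE 0.61) without Ly6D+Gfra2- replicate 1.

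The Hlf promoter (RefSeq, GRCm38.p6, chr11:90390918-90391167, minus strand) is shown because Hlf had the lowest adjusted p of the 8 genes over all settings. That value came from the setting without the libraries that stood apart. The 1 motif match found in this promoter was the CRE, in capitals at bases -9 to -2 before the start.
Hlf: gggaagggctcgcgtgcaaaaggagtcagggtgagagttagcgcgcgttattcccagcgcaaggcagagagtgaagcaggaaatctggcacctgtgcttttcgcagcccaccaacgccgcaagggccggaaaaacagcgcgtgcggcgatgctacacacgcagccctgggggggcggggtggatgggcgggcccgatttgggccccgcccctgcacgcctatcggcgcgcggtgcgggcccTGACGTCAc
With 26 CG dinucleotides it exceeded 90.4% of the 32841 windows.

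**Figure D3:**
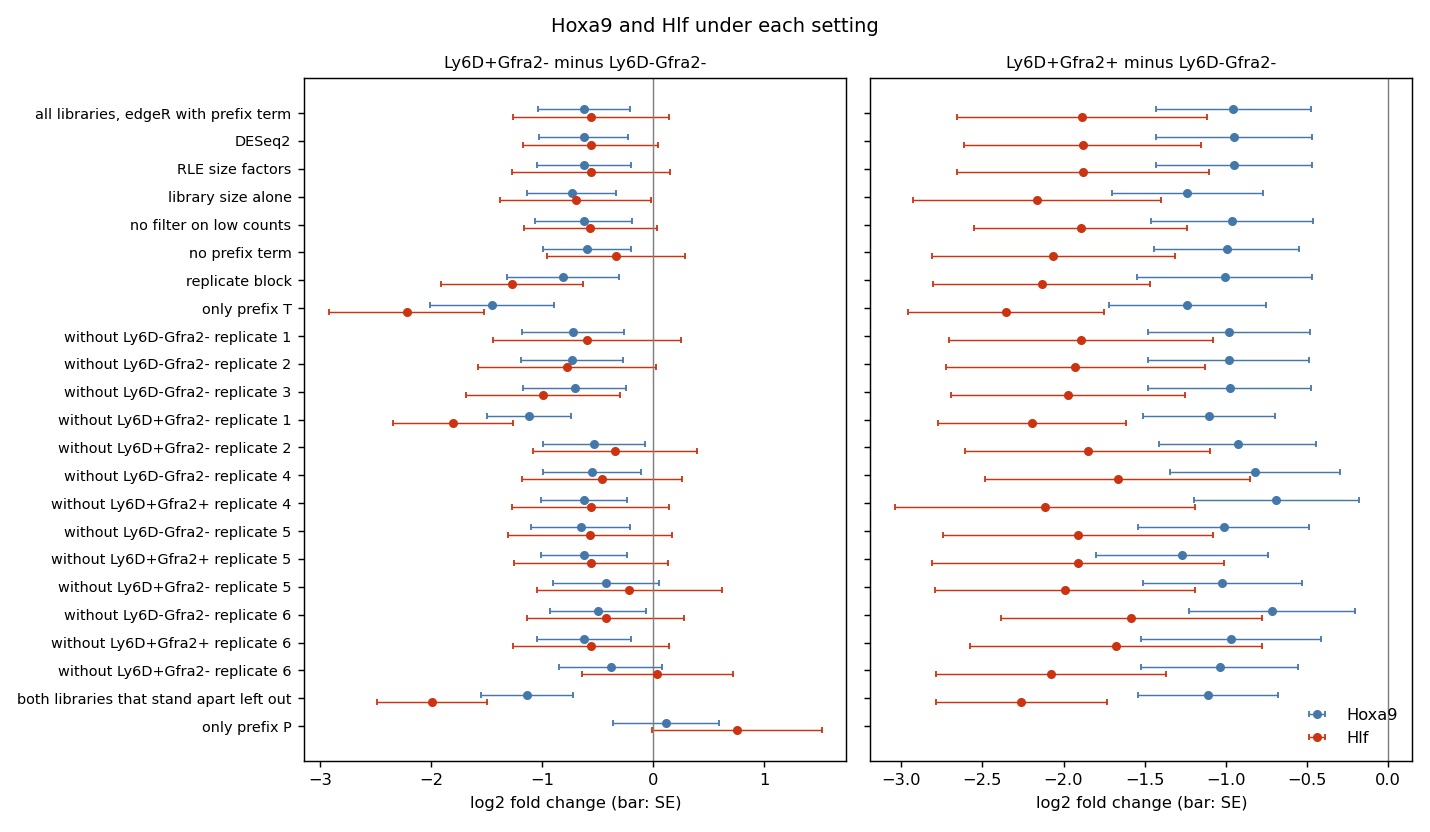
Log2 fold change with SE (x axis) of Hoxa9 (blue) and Hlf (red) under each setting (y axis), for Ly6D+Gfra2- (left) and Ly6D+Gfra2+ (right) against Ly6D-Gfra2-. On the right all values are negative, from -2.35 to -1.58 for Hlf and from -1.27 to -0.69 for Hoxa9. On the left Hlf runs from -2.22 to 0.75.

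The 4 relatives of Hlf and Mecom gave 1 call, in Ly6D+Gfra2+ against Ly6D-Gfra2-, where edgeR called 1.39% of all genes. Nfil3, a bZIP repressor that binds the same sites as the PAR factors, ran from 8.999 to 81.7 CPM with a median of 19.8 CPM in Ly6D-Gfra2-. It had 16.8, 10.3, 3.83 and 10.4 CPM in Ly6D+Gfra2- replicates 1, 2, 5 and 6 and 0, 0 and 0.542 CPM in Ly6D+Gfra2+ replicates 4, 5 and 6. The Ly6D+Gfra2+ libraries lay below all 10 others. Nfil3 fell in Ly6D+Gfra2+ against Ly6D-Gfra2- with a log2 fold change of -7.10 (SE 1.35; edgeR adjusted p = 0.0167), a fitted value that rests on 5 counts in the lower group. The call was lost within prefix T (adjusted p = 0.0993) and without Ly6D-Gfra2- replicate 6 (adjusted p = 0.0601). Dbp and Tef, the other PAR factors, and Prdm16, the closest relative of Mecom, did not pass, with adjusted p of 0.755 or more in that comparison and 0.619 or more in Ly6D+Gfra2+ against Ly6D+Gfra2-.

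Mecom (NM_007963, chromosome 3, 29951296 to 30509759, minus strand) was low in all groups and highest in Ly6D-Gfra2-. It ran from 1.22 to 18.0 CPM with a median of 6.78 CPM there. Replicates 1, 2, 5 and 6 of Ly6D+Gfra2- had 0, 0.102, 4.01 and 0.102 CPM, 46 counts in all, of which replicate 5 held 43. Replicates 4, 5 and 6 of Ly6D+Gfra2+ had 0.229, 4.67 and 3.03 CPM. In 3 of 4 Ly6D+Gfra2- libraries Mecom was thus below all Ly6D-Gfra2- libraries, and replicate 5 made the groups overlap. The log2 fold change against Ly6D-Gfra2- was -3.50 (SE 1.76; edgeR adjusted p = 0.9995) in Ly6D+Gfra2- and -2.25 (SE 1.93; edgeR adjusted p = 0.644) in Ly6D+Gfra2+. Both stayed negative in every alternative setting, 22 for the first and 21 for the second. Ly6D+Gfra2+ against Ly6D+Gfra2- had 1.25 (SE 1.56; edgeR adjusted p = 0.790). Without Ly6D+Gfra2- replicate 5 these values were -6.58, -1.28 and 5.30. The span above is that of the whole gene, which has forms with separate starts. The GENCODE transcript matched to the counted identifier runs from 29951296 to 30013156, so the window of the inner start (RefSeq, GRCm38.p6, chr3:30013205-30013454, minus strand) is printed. The window of the outer start, not printed, held a Hox with Pbx match, TGATAAAT, at bases -31 to -24, and within it a posterior Hox and Cdx match on the other strand. In the inner window, capitals mark a Meis match, CTGTCA, which is TGACAG on the other strand, at bases -86 to -81.
Mecom: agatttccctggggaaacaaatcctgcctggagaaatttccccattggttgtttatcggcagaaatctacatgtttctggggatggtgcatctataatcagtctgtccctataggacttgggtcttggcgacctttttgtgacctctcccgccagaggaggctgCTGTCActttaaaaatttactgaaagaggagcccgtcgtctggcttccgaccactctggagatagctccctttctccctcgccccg

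Across all 8 genes, 0 passed in any of the 3 comparisons with edgeR or with DESeq2, and 0 passed in any other setting tried. The lowest adjusted p of any of the 8 genes in any setting was 0.0512 (edgeR), for Hlf without both libraries that stood apart. Those libraries were chosen partly from levels of Hlf, so this value carries no test. All 8 were abundant enough to be tested. Ly6D+Gfra2- against Ly6D-Gfra2- had 3 positive and 5 negative log2 fold changes with a median of -0.24, beside -0.0058 over all 12722 genes. Over all genes the share called was 0% with edgeR and 0.157% with DESeq2, and 4.71% had an unadjusted p under 0.05 against 0 of the 8. Ly6D+Gfra2+ against Ly6D+Gfra2- had 4 of each sign with a median of -0.11, beside 0.025 over all genes, of which edgeR called 0.409% and DESeq2 4.28%. There 1 of the 8, Pbx3, had an unadjusted p under 0.05, as did 13.2% of all genes. Ly6D+Gfra2+ against Ly6D-Gfra2- had 3 positive and 5 negative values with a median of -1.42, beside 0.013 over all genes, of which edgeR called 1.39% and DESeq2 6.2%. In that comparison 2 of the 8, Hlf and Pbx3, had an unadjusted p under 0.05, as did 15.4% of all genes. These comparisons share libraries, so their values are not independent of each other.

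**Figure D4:**
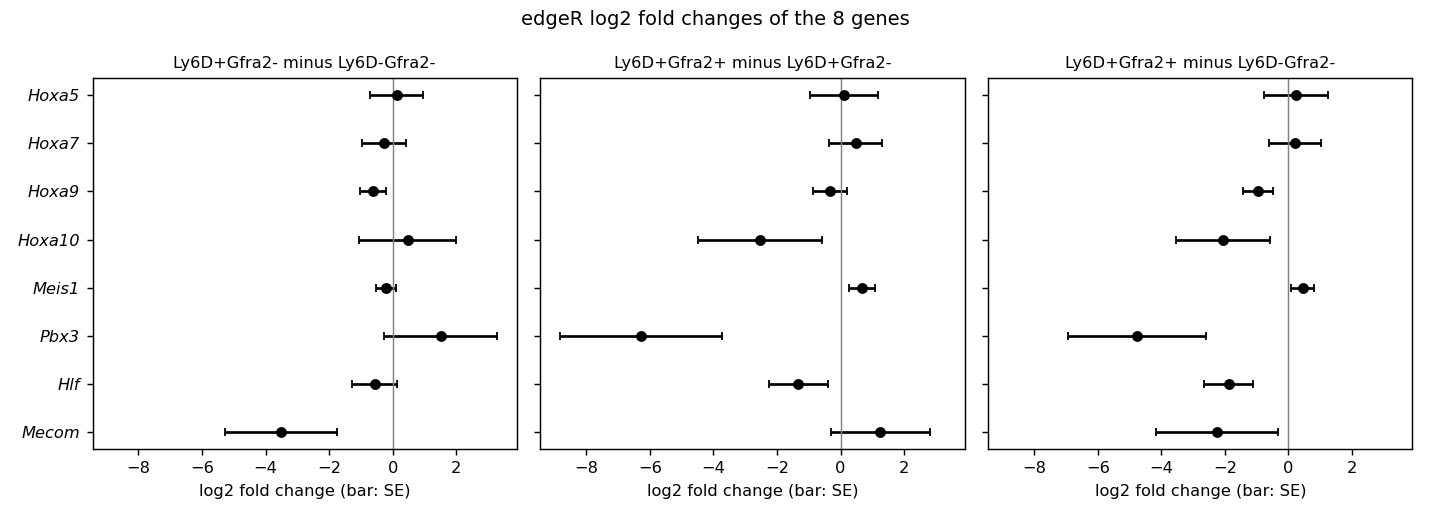
Log2 fold changes of the 8 genes (x axis, edgeR, bars are SE) in the 3 comparisons, 1 panel each. Pbx3 and Mecom, the genes with the fewest counts, have among the widest bars, and Meis1 the narrowest. In the right panel Hoxa9, Hoxa10, Pbx3, Hlf and Mecom lie below 0.

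Groups without overlap were counted as well. In Ly6D+Gfra2+ against Ly6D-Gfra2- 1 of the 8, Hoxa9, lay lower without overlap, and 6.19% of all genes did. Against Ly6D+Gfra2- 1 of the 8, Pbx3, lay lower, and 5.71% of all genes did. In Ly6D+Gfra2- against Ly6D-Gfra2- 0 of the 8 lay lower, and 0.951% of all genes did. Without the 2 libraries that stood apart, Hoxa9, Hoxa10 and Hlf lay lower without overlap in both Ly6D+ groups against Ly6D-Gfra2-, 3 of the 8 in each. Over all genes those shares were 2.6% for Ly6D+Gfra2- and 6.83% for Ly6D+Gfra2+. In Ly6D+Gfra2+ against Ly6D+Gfra2- Pbx3 again lay lower (9.75% of all genes did), and Meis1 lay higher (5.92%). The libraries left out were chosen partly from levels of these genes, Meis1 among them. The counts of 3 and the higher place of Meis1 are therefore a description and carry no test.

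Markers of other cell types were read beside these levels. The summed level of 12 granulocyte and monocyte markers was 644 to 1429 CPM in Ly6D-Gfra2-, 428 to 585 CPM in Ly6D+Gfra2-, and in Ly6D+Gfra2+ it was 198 to 466 CPM. The 644 CPM is from the library labelled Ly6D-Gfra2- replicate 3, which stood apart, and the others of its label had 744 CPM or more. Between 5 and 12, 5 and 9, and 5 and 7 of the 12 had counts in a library of these groups. Mpo made up most of the sum, with means of 792, 409 and 239.5 CPM in that order. Other markers had another order, such as Lyz2 with means of 126, 52.4 and 89.7 CPM and Ly6c2 with 3.78, 3.26 and 17.1 CPM. A single library held most of the Ly6c2 mean in Ly6D+Gfra2+, where the median was 0.758 CPM and the highest value 50.5 CPM. Camp, Ltf and Ngp were at 0 in all 3 Ly6D+Gfra2+ libraries. Of 9 tested, 2 fell in Ly6D+Gfra2+ against Ly6D-Gfra2- (Mpo and S100a9, edgeR), where edgeR called 1.39% of all genes. S100a9 ran from 0 to 177 CPM with a median of 2.59 CPM in Ly6D-Gfra2-, and had 1 count in all of Ly6D+Gfra2+. In Ly6D+Gfra2+ against Ly6D+Gfra2-, 5 of 9 had a positive log2 fold change, with a median of 0.65. The 12 stem cell markers summed to 112 to 250 CPM in Ly6D-Gfra2-, 72.8 to 117 CPM in Ly6D+Gfra2-, and in Ly6D+Gfra2+ to 85.6 to 237 CPM. The same library labelled Ly6D-Gfra2- replicate 3 had the 112 CPM, and the others of its label had 150 CPM or more. From 6 to 9, 5 to 7 and 2 to 4 of the 12 had counts. Angpt1 had the highest mean of the 12 in each group, with 101, 42.4 and 79.8 CPM in that order. Procr and Tek, which mark stem cells, were at 0 in all 13 libraries, and Fgd5, Gata2, Slamf1, Vwf and Pdzk1ip1 were at 0 in all Ly6D+Gfra2+ libraries. Fgd5, Slamf1 and Pdzk1ip1 were also at 0 in 4 of 6 Ly6D-Gfra2- libraries. Ctnnal1 went the other way, with means of 5.57, 10.6 and 49.2 CPM (log2 fold change 3.51 in Ly6D+Gfra2+ against Ly6D-Gfra2-, SE 1.40; edgeR adjusted p = 0.244), and Esam had 1.75, 0.761 and 6.91 CPM. A single Ly6D+Gfra2+ library held most of each mean, with medians of 7.58 and 0.479 CPM and highest values of 140 and 20.3 CPM. Mycn had means of 57.0, 41.1 and 3.29 CPM. Its log2 fold change in Ly6D+Gfra2+ against Ly6D-Gfra2- was -3.80 (SE 0.93, edgeR adjusted p = 0.0537). The 10 markers of B lineage summed to 25.1 to 146, 191 to 204 and 2362 to 2652 CPM in the same order. The library labelled Ly6D-Gfra2- replicate 3 had the 146 CPM, and the others of its label had up to 69.7 CPM. Of 9 tested, 5 rose in Ly6D+Gfra2+ against Ly6D-Gfra2- (edgeR adjusted p under the threshold, reached by 1.39% of all genes). The part of these cell types in the levels of Hoxa9 and Hlf was not tested.

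Genes that act above and below the Hoxa and Meis factors were read from lists. The MLL complex and its cofactors keep Hoxa genes and Meis1 active, and 0 of its 10 listed genes passed in any comparison with edgeR. Unadjusted p in edgeR was under 0.05 for 5 of the 10 in Ly6D+Gfra2+ against Ly6D+Gfra2-, beside 13.2% of all genes. In Ly6D+Gfra2+ against Ly6D-Gfra2- it was for 6 of the 10, beside 15.4% of all genes. The median log2 fold change of the 10 was 0.25 in Ly6D+Gfra2+ against Ly6D-Gfra2-, with 6 positive and 4 negative. Kmt2a, the MLL methyltransferase, had 0.65 (SE 0.18; edgeR adjusted p = 0.0904), Dot1l, a histone methyltransferase recruited with MLL partners, 1.39 (SE 0.42; edgeR adjusted p = 0.119), and Aff1 1.03 (SE 0.32; edgeR adjusted p = 0.124). Ash1l, a methyltransferase that acts on Hox genes, had -0.49 (SE 0.18; edgeR adjusted p = 0.193). Among 10 genes reported to be regulated by Hoxa9 or Meis1, 2 rose and 2 fell in Ly6D+Gfra2+ against Ly6D-Gfra2-, 1 fell against Ly6D+Gfra2-, and 0 passed in Ly6D+Gfra2- against Ly6D-Gfra2-, where edgeR called 1.39%, 0.409% and 0% of all genes. Their median log2 fold changes were -0.18, -0.21 and 0.12.

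Cd34, a surface protein of stem and progenitor cells, had 234 to 686 CPM with a median of 453 CPM in Ly6D-Gfra2-, 452, 193, 219 and 148 CPM in replicates 1, 2, 5 and 6 of Ly6D+Gfra2-, and 85.7, 64.7 and 38.9 CPM in replicates 4, 5 and 6 of Ly6D+Gfra2+. Ly6D+Gfra2+ lay below all other libraries, and Cd34 fell against Ly6D-Gfra2- with a log2 fold change of -2.62 (SE 0.40; edgeR adjusted p = 0.00389), a call kept in all 21 alternative settings. Bcl2, which blocks cell death, ran from 402 to 1024 CPM in Ly6D-Gfra2-. Ly6D+Gfra2- replicates 1, 2, 5 and 6 had 1319, 1045, 608 and 660 CPM and Ly6D+Gfra2+ replicates 4, 5 and 6 had 94.3, 51.1 and 245 CPM, below all others. It fell by 1.995 on the log2 scale against Ly6D-Gfra2- (SE 0.38; edgeR adjusted p = 0.0170) and by 2.32 against Ly6D+Gfra2- (SE 0.40; edgeR adjusted p = 0.0224). The first call was lost within prefix T (adjusted p = 0.116) and without Ly6D-Gfra2- replicate 4 (0.0638), and the second within prefix T (adjusted p = 0.193) and without Ly6D+Gfra2- replicate 5 (0.0619) or 6 (0.0707). Il7r, the receptor for interleukin 7 and a CLP marker, ran from 311 to 658 CPM in Ly6D-Gfra2-, while Ly6D+Gfra2+ replicates 4, 5 and 6 had 1118, 749 and 912 CPM. Its log2 fold change was 1.19 (SE 0.24; edgeR adjusted p = 0.0228), and the call was lost in 5 of 21 settings. These were library size alone (adjusted p = 0.0956) and the fits without Ly6D-Gfra2- replicate 4 (0.0863), 5 (0.0997) or 6 (0.0597) or Ly6D+Gfra2+ replicate 4 (0.0593). Myb, a progenitor transcription factor, rose by 0.82 (SE 0.17; edgeR adjusted p = 0.0231), and its call was lost in 8 of 21 settings, with adjusted p up to 0.156. Those settings were library size alone, no prefix term, the replicate number as block, prefix T alone, and the fits without Ly6D-Gfra2- replicate 4, 5 or 6 or Ly6D+Gfra2+ replicate 5. Flt3, another reported target, had log2 fold changes of -0.11 to 0.044 in the 3 comparisons, with SE of 0.14 to 0.18.

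Likeness of pattern was measured as the root mean square, over the 13 libraries, of the difference between 2 genes in centred log2(CPM + 1), so that 0 is identity. The value is small for any pair of steady genes, so each is read against the spread of the gene about its own mean. Hoxa9 with Meis1 gave 0.744, above the spread of either, which shows no likeness by this measure. Among other pairs, Hoxa9 with Hlf gave 0.807, above the spread of Hoxa9 and below that of Hlf. Hoxa10 with Hlf gave 1.26, below the spread of Hoxa10 and above that of Hlf. A value below the larger spread of a pair arises only where deviations go partly the same way, as in both these pairs. How often unrelated genes reach such values was not tested. Ly6D+Gfra2- replicate 1 was the highest library for Hlf and Hoxa10, and its weight in these values was not tested. Among the 10407 genes that averaged 5 CPM or more, the nearest to Hoxa9 were Man1a (0.394), Zfp933 (0.395) and Ap3s2 (0.414), and the root mean square of Hoxa9 about its own mean was 0.648. Nearest to Hlf were Gtf2e1 (0.680), Ifih1 (0.718) and Ptdss2 (0.733), with 1.23 for Hlf itself. Meis1 lay nearest to Arpc2 (0.267), Fxr2 (0.268) and Etfb (0.277), with 0.432 for itself, and Hoxa7 to Thbd (0.340), Ss18l1 (0.465) and Yeats4 (0.478), with 1.07. Hoxa5 lay nearest to Ttn, Mien1 and Mrps11 (0.686, 0.775 and 0.808 against 1.39), and Hoxa10 to Cd4, Zscan2 and Nfe2 (0.886, 0.932 and 0.943 against 1.73). Pbx3 and Mecom, below 5 CPM on average, were not searched. Each nearest gene is picked as a smallest value among 10407 genes over 13 libraries, so its nearness is a description and carries no test.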

How the data were processed

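Total RNA of sorted CLP (Qiagen RNeasy Micro, NuGEN Ovation libraries) was sequenced. The deposited values are raw counts per RefSeq identifier, 1 file for each library, per the file headers. The submitters' processing notes name FastQC, HISAT, TopHat, HOMER, DESeq and mm10 without roles; whether counting used strand, and what was done with multiply mapped reads, is not given in the sources used here. Of 24072 identifiers, 23815 were named from RefSeq (GRCm38.p6) and 144 from GENCODE M21, and 113 stayed unnamed. The counts were tested with edgeR 4.0.16 (quasi-likelihood, TMM, R 4.3.3) in 1 fit of all 13 libraries with terms for group and prefix. Genes were kept by filterByExpr (minimum count 10, minimum total 15), which left 12722, and a gene was called where its adjusted p (Benjamini-Hochberg, two-sided test) was under 0.05. For edgeR, SE is the size of the log2 fold change divided by the square root of the F statistic of its test. Code was tested on simulated data. Alternatives were DESeq2 1.42.0, RLE factors, library size alone, no filter, no prefix term, a replicate block, 1 prefix only and each library left out, and, after seeing the data, 2 libraries left out together.

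Some genes of the lists are not reported here. The 8 genes and the lists were chosen with earlier results of these data known. Named from each list were up to 4 genes with the smallest unadjusted p. For likeness, the 3 nearest genes were named for members with a mean of at least 5 CPM. Hoxa3, Hoxa6, Pbx2, Meis2, Flt3 and the markers were named after their values were seen. Intervals and floors of 3 counts cover counting error alone, as amplified copies of a molecule are not independent. Coordinates are from the RefSeq gene table; motifs were searched on both strands of the 250 bases before each start, for which 7 of the 8 genes had 9 windows.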

Additional observations from a re-analysis of the deposited data

Results flagged for a closer look

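In each of the 16 groups of 4 or 6 libraries (8 genes in Ly6D-Gfra2- and Ly6D+Gfra2-), the gap between the most extreme library and its nearest neighbour was set against the range of the group by Dixon's test, which by chance marks about 1 group in 20. That rate holds for independent values of a normal distribution. These are untransformed CPM of genes that share libraries, so the rate does not measure how unusual a count of marks is. The test marked 7 groups. Ly6D+Gfra2- replicate 1 accounts for 4 of them. Hoxa10 was at 103 CPM there while the other 3 libraries had 2.05 to 4.16 CPM. Hlf was at 158 CPM against 8.93 to 26.7 CPM, and Hoxa9 at 94.0 CPM against 30.6 to 39.6 CPM. Hoxa7 went the other way, at 2.27 CPM against 31.3 to 35.9 CPM. Mecom was marked in 2 groups, at 18.0 CPM in Ly6D-Gfra2- replicate 1 (the other 5 had 1.22 to 7.26 CPM) and at 4.01 CPM in Ly6D+Gfra2- replicate 5 (the others had 0 to 0.102 CPM). Pbx3 was at 13.1 CPM in Ly6D-Gfra2- replicate 5, where the other 5 libraries had 0 to 1.41 CPM. What set these libraries apart was not tested.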

How the results depend on the processing

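Of 512 values of the 8 genes under 22 alternative settings, 0 passed the threshold, 475 kept their sign and 37 turned it. Counts of called genes over the whole table moved widely, and the cause was not tested. For Ly6D+Gfra2- against Ly6D-Gfra2- they were 0 with all libraries, 20 with DESeq2, 9 with no filter, 1 within prefix T, 9 without both libraries that stood apart, and 0 to 16 with 1 library left out, 16 being the fit without the library labelled Ly6D-Gfra2- replicate 3. For Ly6D+Gfra2+ against Ly6D+Gfra2- they were 52, then 545 with DESeq2, 164 with no filter, 103 with no prefix term, 9 within prefix T and 12 to 184 with 1 library left out (12 without Ly6D+Gfra2- replicate 5, 184 without Ly6D+Gfra2+ replicate 6), within 1.5 times of 52 for the fits without the library labelled Ly6D-Gfra2- replicate 3 (37) and Ly6D+Gfra2- replicate 1 (60) and for none of the other 11. For Ly6D+Gfra2+ against Ly6D-Gfra2- they were 177, then 789 with DESeq2, 111 with library size alone, 318 with no filter, 62 within prefix T and 49 to 372 with 1 left out (49 without Ly6D-Gfra2- replicate 5, 372 without Ly6D+Gfra2+ replicate 6, and 90, 55, 52, 115 and 106 without Ly6D-Gfra2- replicates 1, 4 and 6, Ly6D+Gfra2+ replicate 5 and Ly6D+Gfra2- replicate 6). Prefix P alone holds no Ly6D+Gfra2+ library, so it gave values for the first comparison only.

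With the replicate number as block, 8, 25 and 92 genes were called in these comparisons, and 0 of the 8 genes. In the library names of prefix T, equal numbers share a tag whose meaning is not stated. Over 9 same-numbered pairs the correlation of deviations from the group mean ran from -0.0277 to 0.137, with 1 above 0.1. In 45 other pairs it ran from -0.104 to 0.089, and 4 of 13 libraries correlated best with their own number. These correlations cannot exclude pairing, because the deviations still held differences between prefixes. Under this block Hoxa10 (-2.05) and Hoxa5 (-0.91) turned in Ly6D+Gfra2- against Ly6D-Gfra2-, and Hoxa5 (-0.47) and Hoxa7 (-0.28) in Ly6D+Gfra2+ against Ly6D-Gfra2-.

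Other turned signs in Ly6D+Gfra2- against Ly6D-Gfra2- were, within prefix T, Hoxa10 -2.32, Hoxa7 0.40 and Pbx3 -0.83, and, within prefix P, Hlf 0.75, Hoxa9 0.12 and Meis1 0.16. Without both libraries that stood apart they were Hoxa10 -2.13, Hoxa7 0.20 and Myb -0.0092, and with library size alone Myb -0.038. With 1 library left out, Hoxa10 ran from -1.91 to 1.31, Hoxa5 from -0.78 to 0.53, Hoxa7 from -0.62 to 0.21 and Hlf from -1.81 to 0.035. In Ly6D+Gfra2+ against Ly6D-Gfra2-, library size alone turned Hoxa7 (-0.021), and with 1 library left out Hoxa5 ran from -0.86 to 0.79 and Hoxa7 from -0.89 to 0.64. In Ly6D+Gfra2+ against Ly6D+Gfra2-, Hoxa5 turned with library size alone (-0.069) and without both libraries (-0.24), and Hoxa9 within prefix T (0.22) and without both (0.028). There, with 1 library left out, Hoxa5 ran from -0.99 to 0.81, Hoxa7 from -0.62 to 0.91 and Hoxa9 from -0.65 to 0.016. Depth limits Pbx3 and Mecom most, with 566 and 646 counts over all libraries.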

Other observations

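Of the Hoxb genes, Hoxb3 and Hoxb4 were abundant enough to test. Hoxb4, a factor used to expand stem cells in culture, ran from 2.56 to 16.5 CPM in Ly6D-Gfra2- and from 4.67 to 9.75 CPM in Ly6D+Gfra2-, while Ly6D+Gfra2+ had no count in 2 of 3 libraries and 7.04 CPM in the other. Its log2 fold change in Ly6D+Gfra2+ against Ly6D-Gfra2- was -1.98 (SE 1.496; edgeR adjusted p = 0.578). Hoxb3 had 2.87 to 12.5, 0.195 to 12.4 and 0 to 1.95 CPM in the 3 groups, and a log2 fold change of -2.06 (SE 1.60; edgeR adjusted p = 0.593). Markers of red cell and platelet precursors, among which Mecom also has a role, summed to 7.38 to 282 CPM in Ly6D-Gfra2-, 6.29 to 36.3 CPM in Ly6D+Gfra2- and 5.50 to 60.8 CPM in Ly6D+Gfra2+, so the groups overlapped, and 0 of the 8 tested passed in edgeR in any comparison. Unadjusted p under 0.05 was reached by 3, 1 and 2 of these 8 in Ly6D+Gfra2- against Ly6D-Gfra2-, Ly6D+Gfra2+ against Ly6D-Gfra2- and Ly6D+Gfra2+ against Ly6D+Gfra2-, beside 4.71%, 15.4% and 13.2% of all genes.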
